A study of Mus musculus with 2 samples.

Results

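The E2F family of transcription factors, E2f1 to E2f8, was examined with RNA-seq data from R1E, a mouse embryonic stem cell line, with and without Adriamycin. The 8 genes were taken by symbol from tables that list 55414 genes, and all 8 were among the 14871 genes called measured, whose CPM (read counts scaled to library size) averaged 1 or more over both libraries. Both libraries came from cells labelled WT, grown in serum with LIF, the cytokine that holds mouse stem cells undifferentiated. The Adriamycin library was from cells given 0.5 µM of the drug for 8 h, and the untreated library is labelled 0 h. Adriamycin (doxorubicin) traps topoisomerase II on DNA and so causes strand breaks. With 1 library a condition there is no replicate check and no p-value, and drug, time in culture and culture cannot be told apart.

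E2F proteins bind DNA at the promoters of genes for DNA replication and cell division. E2F1, E2F2 and E2F3 are the activators, which the retinoblastoma protein (RB) holds inactive until cyclin-dependent kinases phosphorylate it. E2F4 and E2F5 act mainly as repressors with the RB relatives p107 and p130, and E2F4 is the E2F subunit of the DREAM complex that silences cell cycle genes in resting cells. E2F6 has no RB-binding part and works in a Polycomb complex, PRC1.6, that keeps germline genes silent in embryonic stem cells. E2F7 and E2F8, the atypical members, bind DNA without a dimer partner and repress E2F target genes, including E2f1. Embryonic stem cells cycle fast with a short G1 phase, and RB is known to be largely phosphorylated in them. In human cells E2F7 is a known direct target of p53.

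Several family members are known to be under E2F control themselves, so their promoters are shown first. The RefSeq table for build GRCm38.p6 has 8 start sites for 6 of the genes, and E2f4 and E2f5 were not matched in it. Each window runs from 250 bases before the start to 50 after it. The letters TTTCCCGC, TTTGGCGC, TTTCGCGC and TTTGCCGC, forms of the E2F site, were searched on both strands, and so was TTTGAA, the cell cycle homology region (CHR) at which MuvB complexes bind. No match of these forms overlapped another in the windows of the family. An E2F site form was found in 1 window each of E2f2, E2f3 and E2f7, and in 2.26% of all 32851 windows. The CHR letters were found in 1 window each of E2f2, E2f3 and E2f8, and in 17.9% of all windows. The E2f2 CHR match is not in the window with its E2F site but at an inner start, 8388 bases from the first GENCODE start, in a window with 46 coding bases, and is not shown. The p53 half-site motif was in none of the 8 windows and in 8.36% of all windows. The E2f1 window holds 188 coding bases of that gene in the GENCODE M21 annotation. Its RefSeq start lies 466 bases inside the first transcript of the gene, so the window is not shown. The 250 bases before the start follow for E2f3, E2f7 and E2f8, with matches of E2F and CHR letters in capitals, and 30 bases around the match for E2f2, which lies 40 bases after the RefSeq start. All are written 5′ to 3′ on the strand of the gene. A match is a description of the letters and not a site shown to be bound. The RefSeq start of E2f2 lies 120 bases before its first GENCODE start, so its match is upstream of the GENCODE start.
E2f2, chr4:136172294-136172323, plus strand: cgaatttggcggcatatagTTTGGCGCtaa
E2f3, chr13:29986064-29986313, minus strand: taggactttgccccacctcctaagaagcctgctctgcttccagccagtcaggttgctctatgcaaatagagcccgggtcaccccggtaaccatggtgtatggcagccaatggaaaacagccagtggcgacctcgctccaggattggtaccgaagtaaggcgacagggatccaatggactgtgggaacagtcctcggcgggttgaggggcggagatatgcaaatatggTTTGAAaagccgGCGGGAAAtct
E2f7, chr10:110745189-110745438, plus strand: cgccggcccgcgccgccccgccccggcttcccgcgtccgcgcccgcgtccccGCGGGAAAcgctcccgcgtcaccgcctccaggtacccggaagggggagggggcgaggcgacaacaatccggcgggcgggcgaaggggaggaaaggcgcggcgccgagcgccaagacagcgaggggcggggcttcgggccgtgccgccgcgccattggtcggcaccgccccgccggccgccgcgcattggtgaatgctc
E2f8, chr7:48881597-48881846, minus strand: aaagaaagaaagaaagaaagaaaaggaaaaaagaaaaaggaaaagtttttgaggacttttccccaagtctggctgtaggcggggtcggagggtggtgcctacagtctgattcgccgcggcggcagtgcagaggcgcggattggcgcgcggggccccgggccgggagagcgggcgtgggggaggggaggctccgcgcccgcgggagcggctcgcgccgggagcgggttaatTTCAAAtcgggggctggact

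The E2f3 stretch carries the CHR letters at base -23 and an E2F site form at base -11 from the start. E2f3 has another start, inside the gene and 1672 bases from the first, whose window had neither match. The E2f7 match lies at base -198, and the E2f8 CHR match at base -20. The windows differed in base composition, from 54.7% G and C in that of E2f2 to 75.3% in that of E2f7 and 78.7% at the inner start of E2f3, against a median of 52.7% over all windows.

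The libraries held 38561292 reads in the Adriamycin and 41820999 reads in the untreated sample. The cells had transcripts of all 10 embryonic stem cell markers examined, with a summed level of 4014 CPM in the Adriamycin and 6952 CPM in the untreated library. Of the 10, 5 were at least 2-fold lower with Adriamycin and 0 at least 2-fold higher, against 6.95% and 17.0% of all measured genes. Pou5f1 (24502 and 34285 reads), Sox2 (13563 and 17762) and Nanog (7436 and 23059), core pluripotency factors, were detected in the Adriamycin and the untreated library. Markers of other cells summed to 68.5 CPM in the Adriamycin and 35.0 CPM in the untreated library for 8 fibroblast genes. Of these, Col3a1, Postn, Dcn and Lum had 0 reads in both. Col1a1 had 1295 reads in the Adriamycin and 214 in the untreated library, 5.92-fold higher. Pdgfrb had 971 and 636 reads, Thy1 448 and 484, and Col1a2 62 and 59. The sums were 83.0 and 108 CPM for 6 primitive endoderm genes and 16.6 and 5.20 CPM for 5 trophoblast genes, in the same order of libraries. Of the 3 trophoblast genes measured, Gcm1 (181 and 11 reads) was 15.5-fold and Krt7 (346 and 34) 9.85-fold higher. The third, Hand1, had 125 and 148 reads. The part of other cells in the results below was not tested. In bulk RNA, fewer cells with a transcript and less of it per cell cannot be told apart.

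The 8 transcripts differed widely in level. Levels are compared between genes as TPM, read counts divided by exon length and brought to the same total in each library, and intervals are exact Poisson intervals on counts divided by 2, because mates of a pair may have been counted separately. E2f4 was the most abundant, with 306 TPM (296 to 316) in the Adriamycin library and 488 TPM (476 to 500) in the untreated library. E2f1 came second in each, with 184 TPM (177 to 190) in the Adriamycin and 104 TPM (99.7 to 109) in the untreated library. E2f5 followed, with 49.0 TPM in the Adriamycin and 55.8 TPM in the untreated library.

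The lower part of the order differed between the libraries. In Adriamycin cells it ran E2f3 (34.0 TPM), E2f8 (24.4), E2f7 (20.6), E2f6 (19.2) and E2f2 (14.2). In untreated cells it ran E2f8 (48.1 TPM), E2f3 (39.9), E2f2 (32.6), E2f6 (16.0) and E2f7 (15.7). E2f6 and E2f7 were the only neighbours in either order whose intervals overlapped, and they did so in both libraries. The intervals cover counting error only, and exon length joins all isoforms of a gene, which can lower the value of genes such as E2f7 with 9009 exon bases against 1782 for E2f5.

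**Figure D1:**
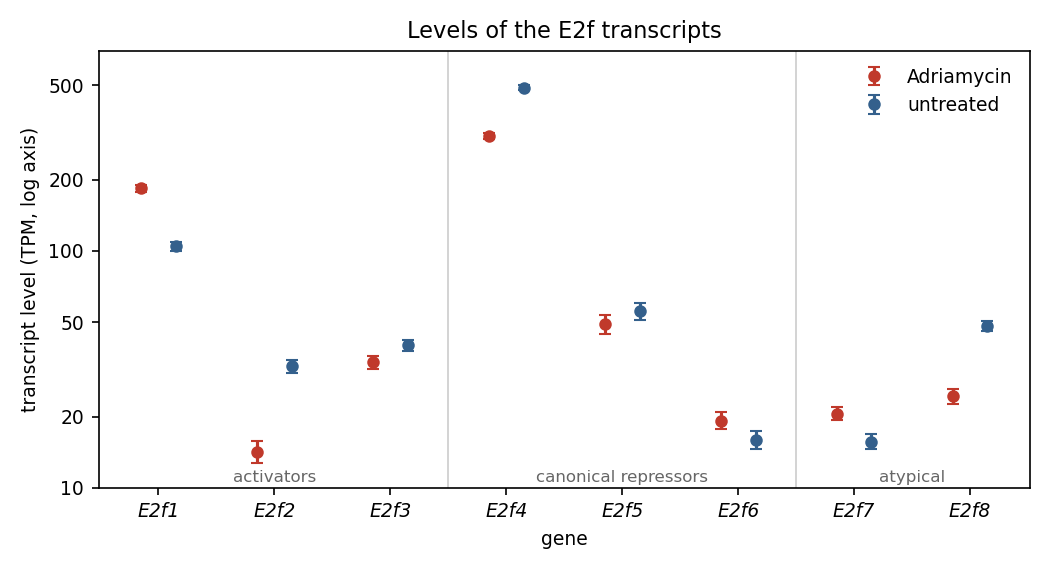
Transcript level of each E2f gene in TPM (log axis) in the Adriamycin library (red, left) and the untreated library (blue, right), with exact 95% Poisson intervals on counts divided by 2. E2f4 is at 306 and 488 TPM and E2f1 at 184 and 104 TPM, and the other 6 genes lie between 14.2 and 55.8 TPM.

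By role, the summed level of the 3 activators was 232 TPM in the Adriamycin library, against 177 TPM in the untreated library. The 3 canonical repressors together had 374 TPM in the Adriamycin library, against 560 TPM in the untreated library. The atypical pair had 45.0 TPM in the Adriamycin and 63.8 TPM in the untreated library. As a share of all E2f TPM, the activators made up 35.6% in the Adriamycin and 22.1% in the untreated library, the canonical repressors 57.5% and 69.9%, and the atypical members 6.91% and 7.97%. E2f1 accounts for the higher activator sum, since E2f2 and E2f3 had fewer TPM in the Adriamycin library. In CPM, scaled as for the ratios below and without length, the activators summed to 217 in the Adriamycin and 198 in the untreated library. The size of the difference between libraries in these sums thus depends on the measure and its scaling.

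Between the libraries, 2 of the 8 genes, E2f2 and E2f8, were at least 2-fold lower with Adriamycin, 25.0% of the family, and 0 were at least 2-fold higher. Over all measured genes 6.95% were at least 2-fold lower and 17.0% at least 2-fold higher. Among the 6570 measured genes within the range of mean CPM that the family spans, the shares were 5.83% lower and 9.30% higher. The median log2 ratio, Adriamycin over untreated, was -0.32 over the 8 genes, -0.03 over all measured genes and -0.17 over those of similar level. Ratios are given below with a 95% counting interval (exact conditional binomial) in parentheses. Unlike the TPM intervals, it is on all reads, and it is too narrow if mates were counted separately.

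The activators differed in direction. E2f1, the activator best known for driving both S phase entry and cell death (ENSMUSG00000027490, chromosome 2, 154401327 to 154411812, GRCm39), had 6124 reads (151 CPM) in the Adriamycin library and 3684 reads (92.6 CPM) in the untreated library. Its log2 ratio was 0.71 (0.65 to 0.76), a 1.63-fold difference that did not reach the 2-fold rule, and 77.3% of measured genes had a lower ratio.

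E2f2, an activator with a known role in blood cells (ENSMUSG00000018983, chromosome 4, 135899705 to 135923368), had 732 reads (18.1 CPM) in the Adriamycin library and 1777 reads (44.7 CPM) in the untreated library. It was 2.47-fold lower, with a log2 ratio of -1.31 (-1.43 to -1.18), and 3.21% of measured genes had a lower ratio. E2f3, which gives rise to the proteins E2F3a and E2F3b from separate starts (ENSMUSG00000016477, chromosome 13, 30090558 to 30170046), had 1949 reads (48.1 CPM) in the Adriamycin and 2425 reads (61.0 CPM) in the untreated library. Its log2 ratio was -0.34 (-0.43 to -0.26), and counts per gene do not tell its 2 starts apart.

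The balance among the activators thus differed between the libraries, whatever the scaling. By TPM, there were 12.9 E2f1 transcripts per E2f2 transcript in the Adriamycin library, against 3.21 in the untreated library. Against E2f3, E2f1 stood at 5.41 in the Adriamycin library and 2.61 in the untreated library, and E2f2 at 0.418 and 0.815. E2f1 and E2f2 were 2.01 apart in log2 ratio, the widest distance in the family.

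Among the canonical repressors none passed 2-fold. E2f4, the abundant partner of p130 (ENSMUSG00000014859, chromosome 8, 106024295 to 106032002), had 7927 reads (195 CPM) in the Adriamycin library and 13383 reads (336 CPM) in the untreated library. Its log2 ratio was -0.78 (-0.82 to -0.74), the nearest to the 2-fold rule of the members outside it, and 11.8% of measured genes had a lower ratio. In TPM this is the largest difference of the family, -182 TPM with Adriamycin.

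E2f5, the close relative of E2f4 (ENSMUSG00000027552, chromosome 3, 14643701 to 14671369), had 923 reads (22.8 CPM) in the Adriamycin and 1111 reads (27.9 CPM) in the untreated library, a log2 ratio of -0.30 (-0.42 to -0.17). E2f6, the Polycomb partner (ENSMUSG00000057469, chromosome 12, 16860964 to 16889743), had 1149 reads (28.3 CPM) in the Adriamycin and 1012 reads (25.4 CPM) in the untreated library, a log2 ratio of 0.16 (0.03 to 0.28). With counts divided by 2 the interval of E2f6 ran from -0.02 to 0.33 and included no difference, while those of the other 7 genes did not. There were 6.24 E2f4 transcripts per E2f5 transcript in the Adriamycin and 8.75 in the untreated library.

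The atypical members also differed in direction. E2f7 (ENSMUSG00000020185, chromosome 10, 110581300 to 110623245) had 1959 reads (48.3 CPM) in the Adriamycin library and 1580 reads (39.7 CPM) in the untreated library, a log2 ratio of 0.28 (0.19 to 0.38). E2f8 (ENSMUSG00000046179, chromosome 7, 48516177 to 48531344) had 1403 reads (34.6 CPM) in the Adriamycin library and 2930 reads (73.7 CPM) in the untreated library. E2f8 was 2.13-fold lower, with a log2 ratio of -1.09 (-1.18 to -0.998), and its ratio was -0.95, outside the 2-fold rule, when libraries were scaled by total counts.

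There were 0.844 E2f7 transcripts per E2f8 transcript in the Adriamycin library, against 0.326 in the untreated library. The 2 genes were 1.37 apart in log2 ratio, and their products are known to overlap in function. Exons of E2f8 overlap those of Gm2788 on the opposite strand over 610 bases, 11.2% of its exon length, and Gm2788 had 15 reads in the Adriamycin and 16 in the untreated library. Exons of E2f5 overlap 1810022K09Rik over 26 bases, with 318 and 475 reads in that gene, and those of E2f7 overlap 1700020G17Rik over 86 bases, with 0 and 3 reads. The counting was without strand, so reads in these stretches cannot be assigned to either gene.

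**Figure D2:**
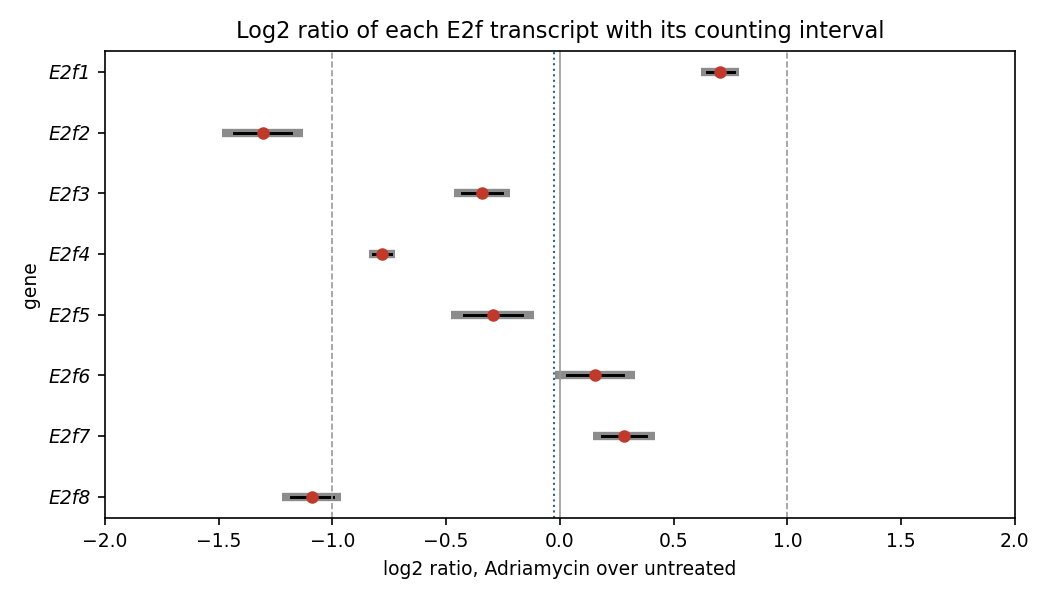
Log2 ratio of each E2f gene, Adriamycin over untreated, as red points with the 95% counting interval on all reads (black line) and on counts divided by 2 (grey bar). Dashed lines mark 2-fold, the dotted line the median of all measured genes at -0.03, and E2f2 (-1.31) and E2f8 (-1.09) lie past the 2-fold line.

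All members lay above the median level of measured genes, from 25.3 mean CPM for E2f5 to 266 mean CPM for E2f4. The fraction of measured genes with a lower mean CPM was 51.3% for E2f5 and 95.5% for E2f4. None of the E2f genes came near the widest ratios of the series, which ran from -5.69 to 9.50 on the log2 scale among measured genes.

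**Figure D3:**
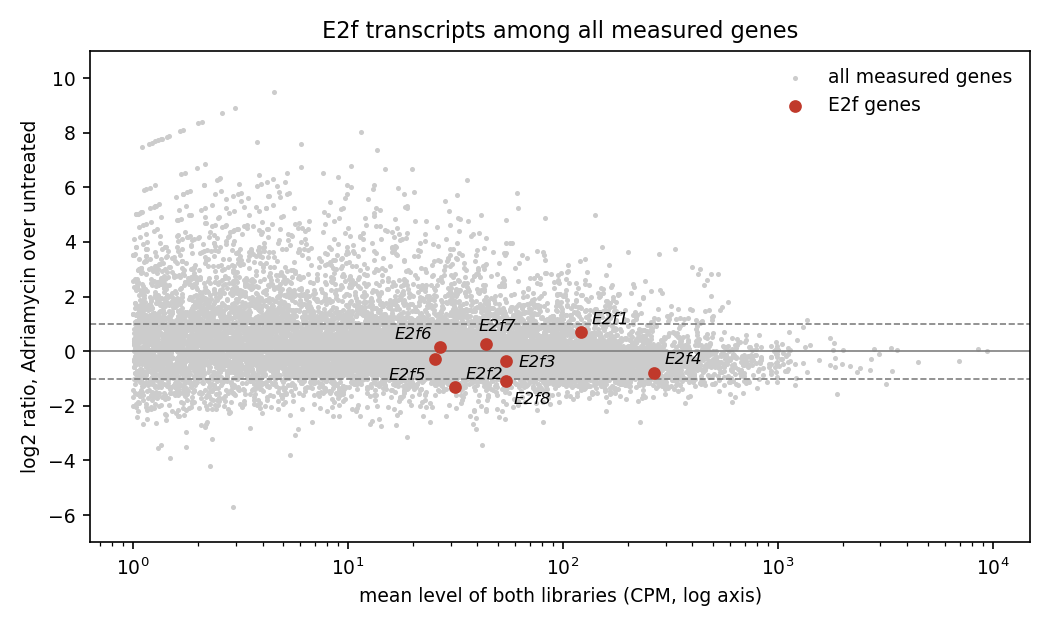
Mean level of both libraries (CPM, log axis) against the log2 ratio, Adriamycin over untreated, for 14871 measured genes (grey) and the 8 E2f genes (red). Dashed lines mark 2-fold, and the E2f genes lie between -1.31 and 0.71.

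The dimer partners of the canonical E2Fs stayed under 2-fold. Tfdp1, which encodes DP1, had 6971 reads in the Adriamycin and 6607 in the untreated library (log2 ratio 0.05, 0.00 to 0.10). Tfdp2, which encodes DP2, had 4520 reads in the Adriamycin and 5120 in the untreated library (-0.21, -0.27 to -0.15).

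Of the 3 pocket proteins that bind E2Fs, 2 were higher with Adriamycin, against 17.0% of all measured genes. Rb1, the gene for RB, had 4648 reads in the Adriamycin library and 914 in the untreated library, 4.99-fold higher. Rbl2, the gene for p130, had 2464 reads in the Adriamycin and 365 in the untreated library, 6.61-fold higher. Rbl1, the gene for p107, had 1387 and 1367 reads (log2 ratio -0.01, -0.12 to 0.10). E2f4, the usual partner of p130, thus had the ratio of -0.78 given above beside one of 2.73 for Rbl2. Exons of Rb1 overlap Rcbtb2 over 488 and Lpar6 over 408 bases. Those of Rbl2 overlap Aktip over 693 bases and Gm45464 over 892 bases. Gm45464 had 10 reads in the Adriamycin and 9 in the untreated library. In the same order, Rcbtb2 had 587 and 498 reads, Lpar6 343 and 189, and Aktip 1189 and 1931. The overlapping genes are on the opposite strand in each case. Reads in the shared stretches cannot be assigned to either gene, and their part was not tested.

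The MuvB core genes, B-Myb and FoxM1, which together with E2F4, p130 or p107 make up DREAM and its activating counterparts, had 0 of 6 genes higher and 0 lower. Over all measured genes, 17.0% were higher and 6.95% lower. The median log2 ratio of the 6 genes was -0.39, against -0.03 for all measured genes. The lowest was Mybl2, the gene for B-Myb and an E2F target, with 16470 reads in the Adriamycin and 30279 in the untreated library (-0.91). Rbbp4 (-0.47), Lin9 (-0.47) and Foxm1 (-0.31) followed.

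The cyclins and kinases that inactivate RB had 5 of 9 genes lower (55.6%) and 0 higher, against 6.95% and 17.0% of all measured genes. Their median log2 ratio was -1.27. Cdk6, a kinase partner of D cyclins, was 4.08-fold lower with 368 reads in the Adriamycin and 1476 in the untreated library. Ccnd2 was 3.41-fold and Ccnd1 2.82-fold lower, both D cyclins, and Ccne1, the cyclin E1 gene and an E2F target, was 3.20-fold lower. The fifth was Ccnd3. Exons of Ccnd1 overlap those of LTO1 on the opposite strand over 1100 bases, 23.4% of its exon length.

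Of 6 measured genes for CDK inhibitors, which keep RB active, 2 were higher and 1 lower, against 17.0% and 6.95% of all measured genes. Cdkn2b, the p15 gene, was 11.1-fold higher with 831 reads in the Adriamycin and 73 in the untreated library. Cdkn1a, the p21 gene and a p53 target, was 3.10-fold higher, Cdkn1b, the p27 gene, 2.13-fold lower, and Cdkn2d, the p19 gene, had a log2 ratio of -0.75. The list's median of 0.02 was 0.17 with total counts, -0.10 with upper-quartile factors and -0.06 without the filter, so it gives no direction.

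Partners of E2F6 in PRC1.6 had 0 of 12 genes higher and 2 lower (16.7%), against 17.0% and 6.95% of all measured genes. Their median was -0.65. The lower ones were Mga (2.18-fold), the DNA-binding scaffold of the complex, and Wdr5 (2.09-fold). Rybp (-0.95) and Cbx3 (-0.93) came next, and Cbx3 has near-identical copies that make its count uncertain. With total counts 0 genes of this list were lower and with upper-quartile factors 4 were.

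Germline genes known to be silenced through E2F6 had 1 of 9 genes higher and 0 lower, against 17.0% and 6.95% of all measured genes. Their median was -0.02, and 0.13 with total counts. All 9 were measured, and they summed to 430 CPM in the Adriamycin and 432 CPM in the untreated library. In the untreated library they ran from 254 reads for Slc25a31 to 6983 for Stag3, so the list was not silent without the drug. Hormad1, a meiotic chromosome axis gene, was 3.13-fold higher, with 2036 reads in the Adriamycin and 638 in the untreated library. Mael (-0.96), Slc25a31 (0.83) and Smc1b (0.48) stayed under 2-fold. E2f6 itself had the log2 ratio of 0.16 given above.

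Known E2F target genes of G1 and S phase had 0 of 38 genes higher and 2 lower, with a median of -0.30. The share called lower, 5.26%, was near the 6.95% of all measured genes, of which 17.0% were higher. The lower ones were Ccne1, counted above among the cyclins, and Ezh2, a Polycomb methyltransferase gene, 2.34-fold lower with 4769 reads in the Adriamycin and 10925 in the untreated library. Mybl2 (-0.91) and Pcna (-0.84), the sliding clamp of DNA polymerases, followed. The highest was Fen1 (0.63), whose exons overlap those of other genes on the opposite strand.

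Cell death genes described as E2F1 targets had 4 of 10 genes higher (40.0%) and 1 lower, against 17.0% and 6.95% of all measured genes. Their median was 0.79. Trp73, a p53 relative, was 31.7-fold higher with 11074 reads in the Adriamycin and 342 in the untreated library. Apaf1, the apoptosome scaffold, was 5.47-fold and Bbc3, the gene for PUMA, 3.36-fold higher, and Pmaip1 was the fourth. Hrk, a BH3-only gene, was 4.37-fold lower with 33 reads in the Adriamycin and 143 in the untreated library. Known p53 targets on this list include Apaf1, Bbc3 and Pmaip1, and the list does not separate E2F1 targets from p53 targets. The cause of each ratio on this list, that of Trp73 included, was not tested.

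Of 24 DREAM target genes of G2 and M phase, 0 were higher and 6 lower (25.0%), against 17.0% and 6.95% of all measured genes. Their median was -0.75. With total counts 4 were lower and with upper-quartile factors 9 were. The kinase gene Plk1, needed for mitosis, was 3.66-fold lower, with 2851 reads in the Adriamycin and 10229 in the untreated library. Kif23, a kinesin of cell division, was 2.73-fold, Aurka, a spindle kinase, 2.43-fold and Cenpf, a kinetochore gene, 2.36-fold lower. Of the 114 measured genes on these lists outside the family, the one nearest to E2f2 in log2 ratio was Aurka (-1.28, 0.0231 apart), and the one nearest to E2f8 was Cdk1 (-1.09, 0.00245 apart), the kinase of mitotic entry. Ccnd3 (-1.27), Cenpf (-1.24) and Ezh2 (-1.22) were among others within the counting interval of E2f2, -1.43 to -1.18. Cdkn1b (-1.09) and Nusap1 (-1.08) were among others within the counting interval of E2f8, -1.18 to -0.998. With 2 libraries, likeness rests on a single ratio per gene.

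**Figure D4:**
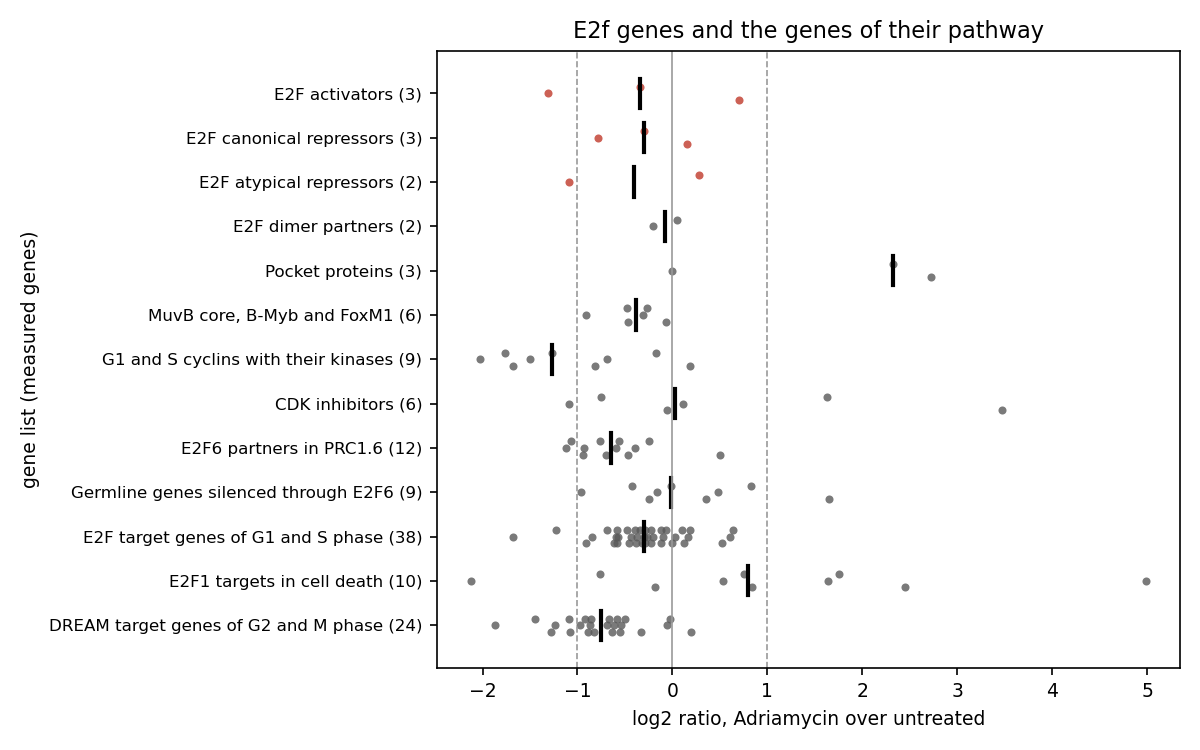
Log2 ratios, Adriamycin over untreated, of the E2f genes (red) and of the measured genes of each pathway list (grey), with the list median as a black bar and the number of measured genes in parentheses. Dashed lines mark 2-fold, and medians run from -1.27 for the G1 and S cyclins with their kinases to 2.32 for the pocket proteins.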

How the data were processed

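RNA sequencing libraries of 1 Adriamycin and 1 untreated culture were compared. The authors deposited raw read counts per gene, 1 table each. Per the file headers, the counter was featureCounts 2.0.3, run in paired-end mode on pairs with both ends aligned, over exons of GRCm39 annotation release 105, without strand or multi-mapping options. A count of 2 was more frequent than 1 (2266 against 1719 genes in the Adriamycin and 2067 against 1629 in the untreated library), so mates may have been counted separately. The submitters' processing notes name HISAT2 2.0.4 and featureCounts 1.6.0 with mm9 and mm10, unlike the headers. Gene positions are those of the deposited tables (GRCm39), and promoters are RefSeq's on GRCm38.p6.

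From the counts, library sizes were scaled by TMM factors (edgeR 4.0.16), 1.05 for Adriamycin and 0.951 for untreated. Log2 ratios used a pseudocount of 0.5 read, and genes averaging 1 CPM or more over the libraries counted as measured. TPM used the deposited exon lengths. Higher or lower means at least 2-fold, a rule of size. Intervals cover counting error only, and reads without molecular identifiers are not independent molecules. Symbols were matched for 52081 identifiers and not for 3333. The ratio step was tested on simulated counts with as many genes changed upward as downward. In these data 71.0% of called genes were higher, so the simulation cannot tell how the scaling handles that imbalance. The members and lists were chosen with earlier results of these data known. In each list of 4 or more genes the 4 genes with the largest absolute log2 ratio are named. Ccnd3, Pmaip1, Fen1, Stag3, Gcm1, Krt7 and Hand1 were named after their values were seen. Of the 7 genes listed around MuvB, 6 were analysed here. Other scalings (total counts, upper-quartile, DESeq2 1.42.0 size factors), no filter, a pseudocount of 5 reads and counts divided by 2 were tried.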

Additional observations from a re-analysis of the deposited data

How the results depend on the processing

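No member changed the sign of its log2 ratio under the other scalings, the larger pseudocount or counts divided by 2. Total counts moved the median of all measured genes from -0.03 to 0.12 and upper-quartile factors to -0.15, and each gene moves by that shift. With total counts 1 E2f gene, E2f2, was at least 2-fold lower, and the family median was -0.17. With total counts the list medians were -0.24 (MuvB), -1.13 (cyclins and kinases), -0.50 (PRC1.6), 0.13 (germline), -0.15 (G1 and S targets) and -0.61 (DREAM targets). With upper-quartile factors the family median was -0.44, and these lists had -0.51, -1.40, -0.77, -0.14, -0.42 and -0.88. The share of called genes that were higher was 71.0% under TMM, 80.2% under total counts and 61.6% under upper-quartile scaling. Without the filter 8514 genes were higher and 4292 lower, against 2531 and 1034, because genes with few reads enter. DESeq2 size factors and a pseudocount of 5 reads kept both E2f calls. Calls per list under these settings were added after seeing the data. Under total counts, 4 DREAM targets, 0 CDK inhibitors and 0 PRC1.6 genes were lower. Under upper-quartile scaling, 9 DREAM targets, 4 PRC1.6 genes, 3 G1 and S targets, 1 MuvB gene and 1 germline gene were lower. Counts of higher genes per list were the same in all these settings. Ranked by CPM without length, E2f7 was 3, E2f6 was 6 and E2f5 was 7 in the Adriamycin library. In the untreated library E2f8 was 3, E2f3 was 4, E2f2 was 5, E2f7 was 6, E2f5 was 7 and E2f6 was 8. No paired analysis was possible because each condition has 1 library, and for the same reason no replicate could be left out. The lowest count of an E2f gene was 732 reads, and counting error alone covers the sign of the E2f6 ratio, the order of E2f6 and E2f7, and the side of the 2-fold line on which E2f8 lies.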
